A study of Danio rerio with 2 samples.

Results

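The vacuolar proton pump, or V-ATPase, was described in 1 wild-type (WT) and 1 salvianolate-treated zebrafish library. Its genes were taken as all genes whose name starts with atp6v0, atp6v1 or atp6ap, in either case, and that reached 1 CPM (counts scaled to library size) in 1 or both libraries. Of 26597 genes in the deposited table, 27 carried such a name and 26 passed: 12 genes of the V1 part, 9 of the V0 part and 5 accessory genes. The gene left out was ATP6V1C2 (ENSDARG00000070440), a form of the C subunit that is restricted to few tissues in mammals, with 4 estimated counts in wild type and 3 in the treated library. All 26 members also reached 10 CPM in 1 or both libraries, and the lowest count of a member was 178.

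The V-ATPase is a rotary motor that uses ATP to pump protons into lysosomes, endosomes, the Golgi and synaptic vesicles, and across the surface of acid-secreting cells. The V1 part lies in the cytosol and splits ATP, with A and B subunits in its head, D and F in its rotor, and C, E, G and H in its stalks. The V0 part lies in the membrane and carries the protons through a ring of c subunits past the a subunit. In zebrafish embryos the pump is also known from skin ionocytes that secrete acid.

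Both libraries are labelled as total RNA of cardiac tissue. The treated library is from zebrafish given salvianolate, an extract of Salvia miltiorrhiza root, and the other from zebrafish labelled WT, with no other allele or agent named. The labels give no age, dose, duration, sex or number of animals, and the title of the treated library speaks of embryos. The series asks by which mechanism salvianolate limits cardiotoxicity. Estimated counts summed to 19531808 in wild type and 19295536 in the treated library.

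Several facts of the libraries touch every value below. With 1 library a group, no difference has a replicate check and no test between conditions was possible; the intervals printed are 95% intervals that cover counting error only. Heart muscle genes were present but low. MYL7, which encodes a heart myosin light chain, was at 19.1 (wild type) and 14.7 CPM (treated). The most abundant gene of a heart muscle list, MYH6 (ENSDARG00000079564), went the other way, at 30.0 and 39.1 CPM. Of the 7 genes of that list above 1 CPM, 3 were lower in treated beyond counting error. Only this MYH6 gene was higher beyond it. The same shares over all genes above 1 CPM were 17.3% lower and 17.4% higher, not matched for counts. All 8 genes of the list summed to 55.7 and 46.6 FPKM, the length-scaled unit of the authors. On the same scale the 16 genes of a list of neurons and synaptic vesicles summed to 709 and 923 FPKM, and 7 photoreceptor genes to 138 and 649 FPKM, above the heart list in both libraries. By the 2-fold rule below, 533 genes were higher and 143 lower with treatment, whereas the series' own text gives 109 up-regulated and 565 down-regulated genes. The thresholds and gene filter behind the series' numbers may differ from those used here. It is not known whether the labels or the direction in that text were swapped, and the labels are followed here. If the labels were swapped, every ratio below would change sign, and counts of higher and lower genes and the highest and lowest ranks would change places. A swap in the series' text alone would leave them as they are. In bulk RNA, fewer cells of a type and less RNA per cell cannot be told apart.

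No proton pump gene differed by as much as 1.5-fold between the libraries. A gene was called higher or lower when its TMM-scaled fold was at least 2 and its counting interval excluded 1. None of 26 members was called higher, against 2.69% of the 19829 genes above 1 CPM, and none was called lower, against 0.721%. Among the 11621 genes at 10 CPM or more, where all members lie, the shares were 0.869% and 0.207%, so a count of 0 in 26 is near the background. At 1.5-fold the count was also 0 in both directions, where 2.57% of those 11621 genes were higher and 1.35% lower (6.07% and 2.64% of the 19829).

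Smaller differences were mostly towards the library labelled as treated. The counting interval lay above a ratio of 1 for 13 of 26 members and below it for 2, and it included 1 for 11. The background at 10 CPM or more was 19.2% above and 24.6% below, and over all genes above 1 CPM it was 17.4% and 17.3%. Genes with more counts have narrower intervals, and these backgrounds were not matched to the members' counts. Under total-count scaling the members' counts were 16 and 1, beside 27.5% and 15.6% of all genes at 10 CPM or more, and under upper-quartile scaling they were 12 and 3, beside 17.8% and 27.3%. The ratio was above 1 for 18 members, which is 69.2% (17 with upper-quartile factors and 19 with total counts), against 44.9% of all genes at 10 CPM or more and 49.7% of those above 1 CPM. The median log2 ratio, treated over wild type, was 0.12 over the members, with a range from -0.27 to 0.50, and -0.03 over all genes at 10 CPM or more.

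**Figure D1:**
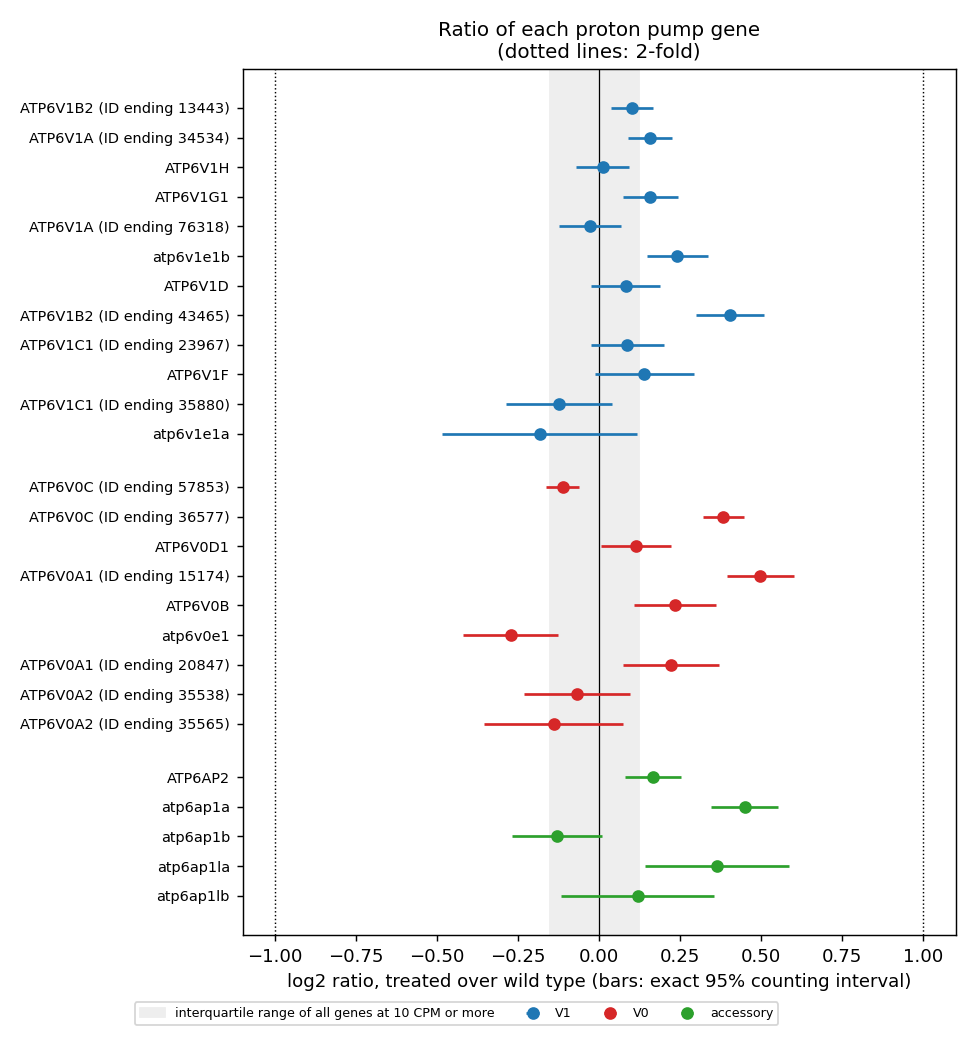
Log2 ratio of treated over wild type (x axis) for the 26 proton pump genes (y axis), grouped as V1, V0 and accessory, with exact 95% counting intervals as bars; the grey band spans the interquartile range of all genes at 10 CPM or more and dotted lines mark 2-fold. All points lie between -0.27 and 0.50, well inside the 2-fold lines.

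The V1, V0 and accessory parts had similar medians. The median log2 ratio was 0.09 over the 12 V1 genes, 0.11 over the 9 V0 genes and 0.17 over the 5 accessory genes. Their ranges overlapped, from -0.18 to 0.40 for V1, from -0.27 to 0.50 for V0 and from -0.13 to 0.45 for the accessory genes. On the log2 scale the V0 genes included both the highest and the lowest ratio of the 26 members taken by name. The interval lay above 1 for 5 V1, 5 V0 and 3 accessory genes, and below 1 for 2 V0 genes.

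**Figure D2:**
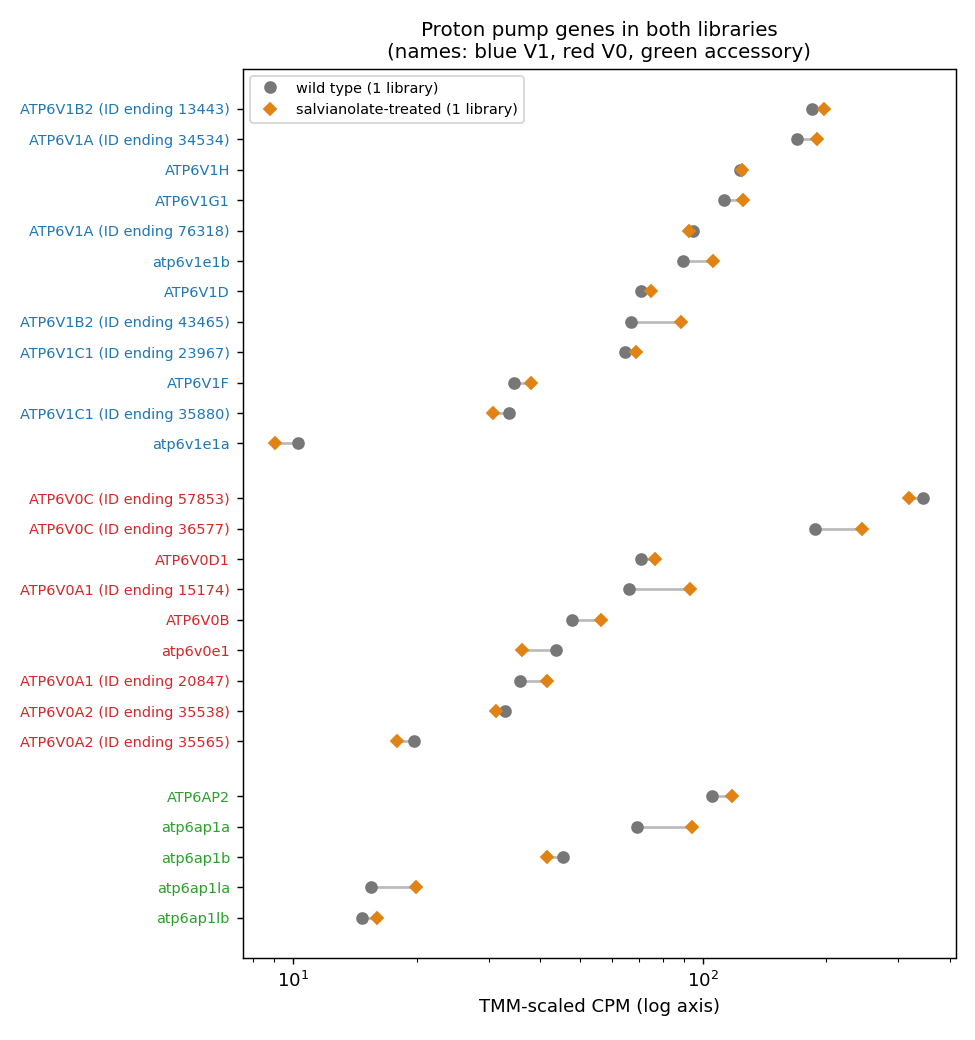
TMM-scaled CPM (x axis, log scale) of each proton pump gene (y axis) in the wild-type library (grey circles) and the treated library (orange diamonds), 1 library each. The 2 ATP6V0C copies lie at 345 and 188 CPM in wild type and atp6v1e1a at 10.3 CPM, and CPM is not scaled to gene length.

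In the V1 head, the A subunit, which splits ATP, has a pair of genes that carry the same name. The more abundant ATP6V1A gene by counts (ENSDARG00000034534) was at 169.9 (wild type) and 189 CPM (treated), giving a log2 ratio of 0.16 (0.09 to 0.23). The other, ENSDARG00000076318, stood at 94.3 and 92.6 CPM, giving a ratio of -0.03 (-0.12 to 0.07). Only the first was higher beyond counting error. The B subunit, which binds nucleotide beside A, was also given by a pair of genes of 1 name. The more abundant ATP6V1B2 gene (ENSDARG00000013443) stood at 184 and 198 CPM, giving a log2 ratio of 0.10 (0.04 to 0.17). The less abundant one (ENSDARG00000043465) stood at 66.9 and 88.4 CPM, giving a ratio of 0.40 (0.30 to 0.51). This was the highest ratio of the V1 genes, and it belonged to the copy with fewer counts.

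In the V1 stalks, atp6v1e1b, an E subunit gene, was at 89.3 (wild type) and 106 CPM (treated), giving a log2 ratio of 0.24 (0.15 to 0.34). Its paralogue atp6v1e1a stood at 10.3 and 9.03 CPM, giving a ratio of -0.18 (-0.49 to 0.12), the lowest ratio among the V1 genes. The G subunit gene ATP6V1G1, whose product pairs with E, stood at 112 and 125 CPM, giving a ratio of 0.16 (0.07 to 0.24). Both E and G thus had a gene that was higher beyond counting error. The H subunit gene ATP6V1H, which regulates the coupling of V1 to V0, stood at 123 and 124 CPM, giving a ratio of 0.01 (-0.07 to 0.09). The C subunit genes named ATP6V1C1 had ratios of 0.09 (-0.03 to 0.20) for ENSDARG00000023967, at 64.6 and 68.6 CPM, and -0.12 (-0.29 to 0.04) for ENSDARG00000035880, at 33.5 and 30.8 CPM. For H and C no difference was detectable at this depth.

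The V1 rotor genes had ratios slightly above 1 with intervals that included it. ATP6V1D was at 70.5 (wild type) and 74.6 CPM (treated), giving a log2 ratio of 0.08 (-0.03 to 0.19). ATP6V1F stood at 34.5 and 38.0 CPM, giving a ratio of 0.14 (-0.01 to 0.29). With total counts in place of TMM scaling, ATP6V1D, ATP6V1F and the more abundant ATP6V1C1 gene had intervals above 1.

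In V0, the c subunit, which forms the rotating ring, has a pair of genes of 1 name that stood above all other members in FPKM (270.4 and 105 in wild type, 261 and 143 in treated), and these copies went opposite ways. The more abundant ATP6V0C gene (ENSDARG00000057853) was at 345 (wild type) and 319 CPM (treated), giving a log2 ratio of -0.11 (-0.16 to -0.06). The other ATP6V0C gene (ENSDARG00000036577) stood at 188 and 245 CPM, giving a ratio of 0.38 (0.32 to 0.45). The first was thus lower and the second higher beyond counting error under TMM scaling; with total counts the ratio of the first was -0.05 and its interval included 1. ATP6V0B, the gene of the c-like subunit of the same ring, stood at 48.0 and 56.5 CPM, giving a ratio of 0.23 (0.11 to 0.36).

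The a subunit, which gives protons their path and places the pump in a given membrane, has several forms. ATP6V0A1 encodes the form that in mammals is prominent in neurons, and ATP6V0A2 the form of the Golgi and endosomes. The more abundant ATP6V0A1 gene (ENSDARG00000015174) was at 65.9 (wild type) and 93.0 CPM (treated), giving a log2 ratio of 0.50 (0.39 to 0.60), the highest among the 26 members. The other ATP6V0A1 gene (ENSDARG00000020847) stood at 35.8 and 41.7 CPM, giving a ratio of 0.22 (0.07 to 0.37). Both ATP6V0A1 genes were higher beyond counting error. The ATP6V0A2 genes did not show a detectable difference. ENSDARG00000035538 stood at 32.9 and 31.3 CPM, giving a ratio of -0.07 (-0.23 to 0.09), and ENSDARG00000035565 at 19.7 and 17.9 CPM, giving a ratio of -0.14 (-0.35 to 0.07). Summed over copies, ATP6V0A1 had a ratio of 0.41 (0.32 to 0.49) and ATP6V0A2 -0.09 (-0.22 to 0.03), and these intervals did not overlap.

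The a3 form of the same subunit, known in mammals from osteoclasts, is named TCIRG1 and is not covered by the naming rule. The more abundant TCIRG1 gene (ENSDARG00000105142) was at 44.5 (wild type) and 32.9 CPM (treated), giving a log2 ratio of -0.43 (-0.58 to -0.29). The other (ENSDARG00000016835) stood at 13.8 and 15.9 CPM, giving a ratio of 0.21 (-0.04 to 0.45). The ratio of the more abundant TCIRG1 gene thus lay below those of all 26 members taken by name.

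The remaining V0 genes encode the d subunit, which joins the ring to the V1 rotor, and the small e subunit. ATP6V0D1 was at 70.5 (wild type) and 76.3 CPM (treated), giving a log2 ratio of 0.11 (0.01 to 0.22); with upper-quartile scaling its interval included 1. The gene atp6v0e1 stood at 43.7 and 36.2 CPM, giving a ratio of -0.27 (-0.42 to -0.13), below all other members. It was also the only member whose deposited counts were not whole, at 835.93 and 713.9; the other 25 had whole counts in both libraries.

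Accessory genes encode membrane proteins that bind V0 and serve its assembly. ATP6AP2, also known as the prorenin receptor gene, was at 105 (wild type) and 118 CPM (treated), giving a log2 ratio of 0.17 (0.08 to 0.25). The gene atp6ap1a stood at 69.0 and 94.2 CPM, giving a ratio of 0.45 (0.35 to 0.55), while its paralogue atp6ap1b stood at 45.6 and 41.7 CPM, giving a ratio of -0.13 (-0.27 to 0.01) and an interval below 1 only with upper-quartile scaling. The related genes atp6ap1la and atp6ap1lb were at 15.5 and 14.8 CPM in the wild-type library and 19.9 and 16.0 CPM in the treated one. Their ratios were 0.36 (0.14 to 0.59) and 0.12 (-0.12 to 0.36). The accessory gene that was highest in ratio, atp6ap1a, and the one that was lowest, atp6ap1b, are thus copies of 1 subunit gene.

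Of the 26 members, 18 form 9 pairs of copies, and the share of a pair's counts that comes from each copy does not depend on how the libraries are scaled. The ratio of the copies' folds had an interval that excluded 1 in 7 of 9 pairs. For a background, pairs were formed from all genes with 1 shared name or with names that differ only in a final a and b. Across the 1135 such pairs with both genes at 10 CPM or more, 35.9% had such an interval. These pairs rest on names alone, and whether the genes of each are copies was not tested. Pump pairs held more counts, with a median of 4600 over both libraries against 3095 over all pairs, which narrows their intervals. In 5 of the 7 pairs the copy with more wild-type counts had the higher ratio, and in 2 it had the lower one.

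The c subunit pair had the narrowest interval. The copy ENSDARG00000057853 gave 64.7% (63.8 to 65.7) of ATP6V0C counts in wild type and 56.6% (55.6 to 57.5) in treated, a difference of -8.17 percentage points (-9.48 to -6.86). Its fold was 0.709 (0.671 to 0.750) times that of the other copy. With the copies on opposite sides of a ratio of 1, the summed ATP6V0C level, at 533 and 564 CPM, had a log2 ratio of only 0.08 (0.04 to 0.12). The share of atp6ap1a in the counts of ATP6AP1 was 60.2% (58.1 to 62.3) in wild type and 69.3% (67.5 to 71.0) in treated, a difference of 9.10 points (6.41 to 11.8), the largest difference in share among the 9 pairs. In the B subunit pair, the more abundant ATP6V1B2 copy gave 73.4% (72.1 to 74.6) in wild type and 69.1% (67.9 to 70.3) in treated.

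In the other pairs the more abundant copy took a similar or larger share in treated. The difference was 4.23 points (1.48 to 6.99) for ATP6V0A1, 2.88 (1.07 to 4.69) for ATP6V1A, 3.2 (0.23 to 6.16) for ATP6V1C1 and 2.43 (0.68 to 4.21) for the E subunit. It was 1.16 points (-3.10 to 5.40) for ATP6V0A2 and 4.22 (-1.25 to 9.67) for the ATP6AP1L pair, where the intervals included 0. Reads that fit both copies of a pair may have been divided between them by the authors' estimation, whose settings are not given. The deposited counts of all 18 paired genes were whole in both libraries, and how shared reads were handled was not tested.

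**Figure D3:**
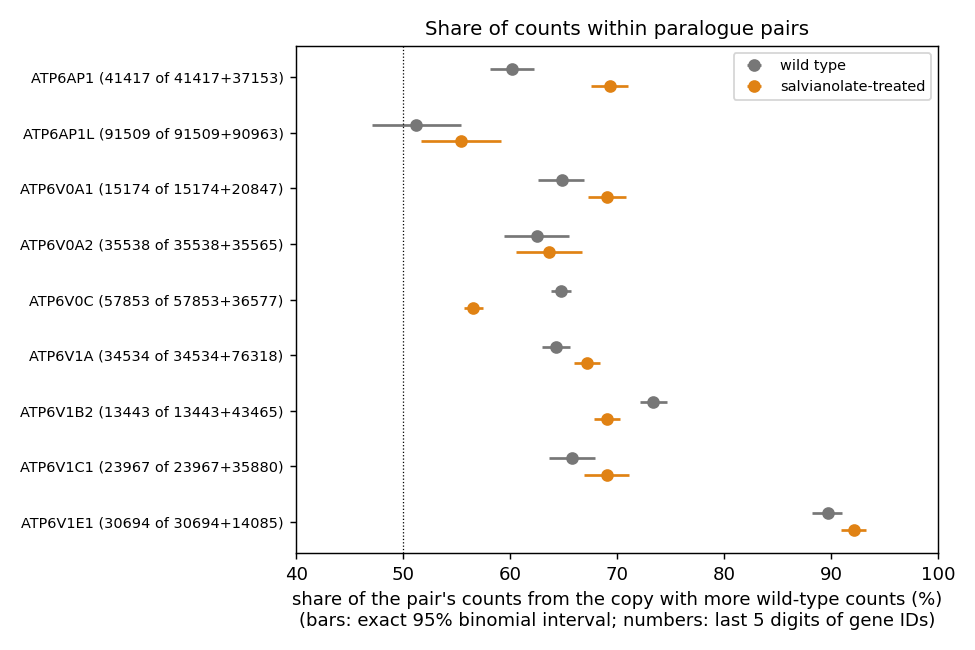
Share of each pair's estimated counts (x axis, percent) from the copy with more wild-type counts, for 9 paralogue pairs (y axis), in the wild-type library (grey) and the treated library (orange), with exact 95% binomial intervals as bars. The shares in wild type and treated were 64.7% and 56.6% for ATP6V0C and 60.2% and 69.3% for ATP6AP1. These were the largest differences downwards and upwards among the 9 pairs.

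Levels of different subunits can be compared only per length, as FPKM. The FPKM are as deposited, without TMM scaling, so between libraries they need not match the ratios above. For ATP6V1A, summed TMM-scaled CPM were 264 (wild type) and 282 (treated), a log2 ratio of 0.09 (0.04 to 0.15). The gene length implied by counts and FPKM also differed between libraries for some genes, as for ATP6V1H at 1.62 and 1.69 kb. Summed over copies, the c subunit stood highest, with ATP6V0C at 375 FPKM in wild type and 404 FPKM in treated. The next were the G, A and B subunits of V1: ATP6V1G1 at 103 and 119.9 FPKM, ATP6V1A at 99.8 and 111 FPKM, and ATP6V1B2 at 98.2 and 117 FPKM. These 3 lay close together in wild type, and A and B changed places in treated, so their order is not resolved by 1 library each. ATP6V1H, at 74.7 and 75.3 FPKM, ATP6AP2, at 74.4 and 87.8 FPKM, and the E subunit, at 71.1 and 86.1 FPKM, came next. The 17 sums go by gene name and keep ATP6V0A1 and ATP6V0A2, forms of the a subunit, apart. The lowest of these sums were ATP6V0A2 at 14.7 and 13.9 FPKM, ATP6AP1L at 18.7 and 23.0 FPKM and ATP6V0B at 24.0 and 29.5 FPKM. For the a subunit this is the level of 1 form and not of the whole subunit. Of the forms of the a subunit, ATP6V0A1 stood at 31.3 FPKM in wild type and 43.6 FPKM in treated, above ATP6V0A2 in both libraries. The a3 form TCIRG1, outside the naming rule and the 17 sums, lay between them at 20.7 and 17.8 FPKM.

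Within pairs, the length scale changed which copy stood higher only for the accessory pairs, and only in wild type, where their FPKM were close. In treated the order was that of the counts. The genes atp6ap1a and atp6ap1b were close in wild type, at 18.9 and 19.0 FPKM, and apart in treated, at 26.9 and 18.2 FPKM. The copies atp6ap1la and atp6ap1lb stood at 9.13 and 9.55 FPKM in wild type and at 12.3 and 10.7 FPKM in treated.

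**Figure D4:**
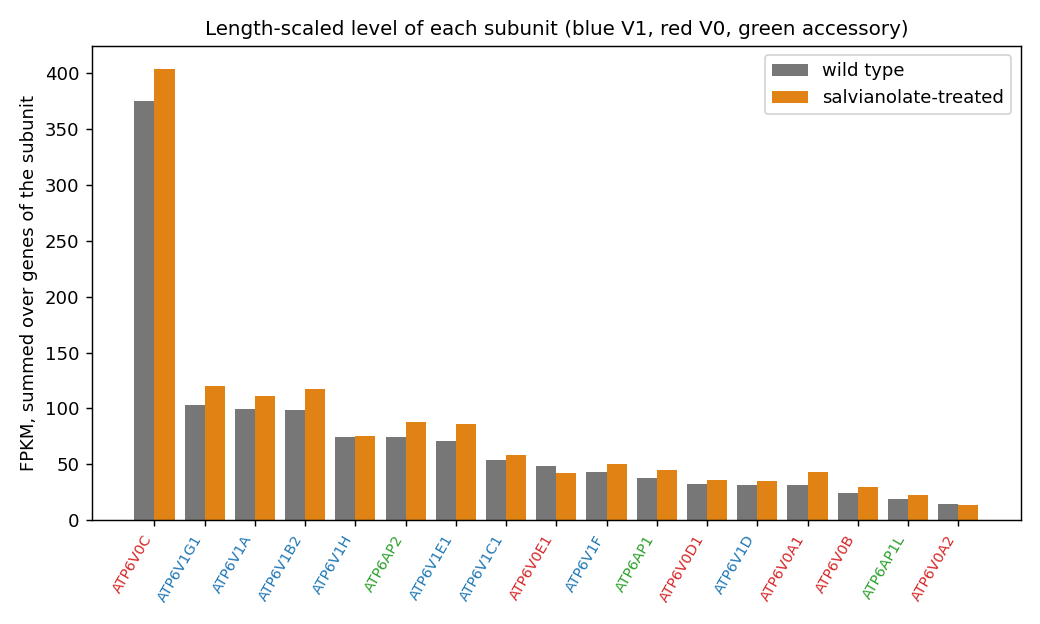
FPKM summed over the genes of each subunit or subunit form (y axis, linear from 0). The 17 sums (x axis, ordered by wild type) keep ATP6V0A1 and ATP6V0A2, forms of the a subunit, apart. The wild-type library is grey and the treated library orange, 1 library each with no error bar. ATP6V0C stands at 375 and 404 FPKM, above all other subunits in both libraries.

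Genes that assemble or regulate the pump had a median ratio close to that of its subunits. Of 16 genes, 4 had an interval above 1 and 2 below, near the 17.4% and 17.3% of all genes above 1 CPM. None reached 2-fold, and the median log2 ratio was 0.10. DMXL2, a part of the complex that joins V1 to V0, was the highest in CPM, at 97.1 (wild type) and 123 CPM (treated), giving a ratio of 0.34 (0.26 to 0.43). Its partner WDR7 had 0.13 (-0.02 to 0.28). OXR1, a TLDc-domain protein gene, had the highest ratio, 0.50 (0.34 to 0.67), from 25.7 and 36.5 CPM, and ncoa7a, another gene of that family, the lowest, -0.34 (-0.66 to -0.02), from 9.37 and 7.40 CPM. The assembly chaperone gene VMA21 was at 32.9 (wild type) and 33.0 CPM (treated).

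Genes of the mTOR nutrient-sensing machinery, which sits on the lysosome with the pump, and of the lysosomal transcription factors had few intervals that excluded 1. Over all genes above 1 CPM, 17.4% had an interval above 1 and 17.3% below. These shares were not matched for counts, and genes with fewer counts have wider intervals. The median log2 ratio of all genes at 10 CPM or more was -0.03. Of 14 Ragulator, Rag and mTOR genes, 1 had an interval above 1, FNIP1 at 0.16 (0.02 to 0.30), and 1 below, rragca at -0.29 (-0.45 to -0.14), with a median of -0.06. The highest ratio was that of rragd, at 2.62 and 3.40 CPM, whose interval included 1. MTOR, the highest in CPM, stood at 113 and 108 CPM. Of 6 genes of the MiT/TFE factors, which drive lysosomal genes in mammals, none had an interval that excluded 1, and the median was -0.18. Counts of these genes ran only from 20 to 159 in a library, so their intervals were wide. TFEC had the highest ratio, 0.16 (-0.24 to 0.56), MITF (ENSDARG00000003732) the lowest, -0.54 (-1.16 to 0.06), and TFE3, the highest in CPM, stood at 8.32 and 7.61 CPM. Of 14 lysosomal and endosomal channel and exchanger genes, none had an interval that excluded 1, and their median was 0.02. The chloride and proton exchanger gene CLCN3, the highest in CPM, stood at 79.6 and 80.9 CPM. The highest ratio, 0.27, belonged to a CLCN5 gene (ENSDARG00000022466) and the lowest, -0.25, to TMEM175, a channel gene of lysosomes.

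Other ATP-coupled ion transporters differed among themselves. Over all genes above 1 CPM, 17.4% had an interval above 1 and 17.3% below. Genes with more counts have narrower intervals, and these shares were not matched for counts. The mitochondrial ATP synthase, a related rotary enzyme that makes ATP, had a median log2 ratio of 0.03 over 20 genes, with an interval above 1 for 3 and below for none. That list took every name starting with atp5, which also covers genes of an inhibitor that is not a subunit. Ratios ran from -0.07 for atp5f1e to 0.25 for atp5if1b, an inhibitor gene. ATP5F1B, the highest in CPM, stood at 1739.9 and 1797 CPM. The Na,K-ATPase of the cell surface had a median of 0.18 over 16 genes, with an interval above 1 for 13 and below for 1. The highest ratio was 0.88 (0.62 to 1.14) for a beta gene named ATP1B2 (ENSDARG00000034424), at 9.94 and 18.3 CPM. The neuronal alpha gene atp1a3a was at 327 (wild type) and 447 CPM (treated), giving a ratio of 0.45 (0.41 to 0.50). The lowest was the alpha gene atp1a1a.2, at 113 and 74.5 CPM, giving a ratio of -0.60 (-0.69 to -0.50). The proton pump median of 0.12 lay between those of the ATP synthase and the Na,K-ATPase.

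**Figure D5:**
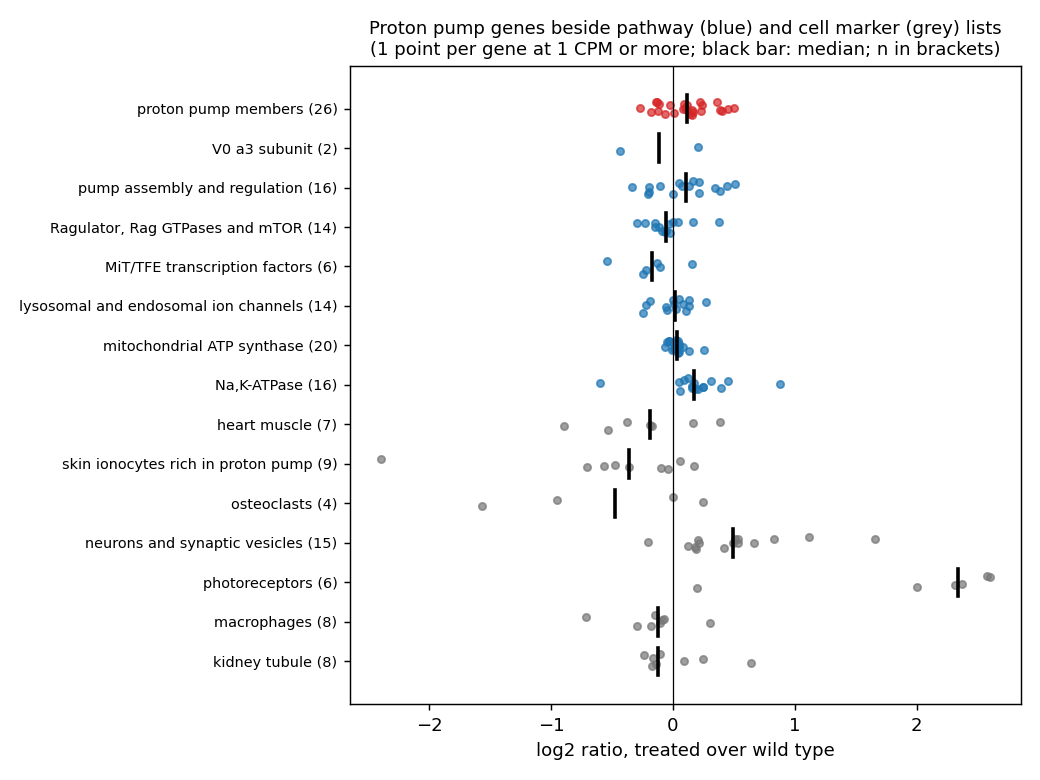
Log2 ratio of treated over wild type (x axis) for the proton pump genes (red), pathway lists (blue) and cell type marker lists (grey), 1 point per gene at 1 CPM or more, with the median as a black bar and the number of genes in brackets. The pump median of 0.12 lies near 0, while the photoreceptor median lies at 2.34 and the osteoclast median at -0.48.

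Markers of cell types that use the pump heavily differed in both directions. Of all genes above 1 CPM, 17.4% had an interval above 1 and 17.3% below, and 2.69% were called higher by the 2-fold rule. Of 15 genes of neurons and synaptic vesicles above 1 CPM, 14 had an interval above 1 and 1 below, with a median log2 ratio of 0.49. Ratios in this list ran from -0.20 (-0.26 to -0.15) for ELAVL3 to 1.65 (1.09 to 2.29) for a gene of the vesicular glutamate transporter SLC17A7 (ENSDARG00000090106). ELAVL3, a neuronal RNA-binding protein gene, was the highest of the list in wild type, at 275 CPM. In treated, at 239 CPM, ELAVL3 lay below ELAVL4, which stood at 240 (wild type) and 272 CPM (treated). The photoreceptor list moved further: 5 of its 6 genes above 1 CPM were at least 2-fold higher. Marker genes of pump-rich skin ionocytes had a median of -0.36 over 9 genes, with no interval above 1 and 2 below. The ammonium transporter gene RHCG (ENSDARG00000003203) was at 17.5 (wild type) and 3.30 CPM (treated), giving a ratio of -2.40 (-2.81 to -2.02). Other genes named RHCG had intervals that included 1. These were ENSDARG00000100265, at -0.71 (-1.76 to 0.27), and ENSDARG00000007080, under 1 CPM, at -0.42 (-1.59 to 0.70). Which of these copies belongs to ionocytes was not tested, and rhcgb, a name on the list, matched no gene. The highest ratio of the list was 0.18 (-0.01 to 0.37) for ca2. The gene highest in CPM, ceacam1, had a ratio of -0.04 (-0.19 to 0.11). The ionocyte factor gene foxi3b had a ratio of 0.06 (-0.25 to 0.36). Of 4 osteoclast genes, the 2 acid phosphatase genes were lower, ACP5 at 23.1 and 7.76 CPM and acp5b at 6.02 and 3.09 CPM, and the protease gene CTSK stood at 52.2 CPM in both libraries. The calcitonin receptor gene CALCR had the highest ratio of the 4, 0.25 (-0.25 to 0.76), from 3.24 and 3.85 CPM. Macrophage and kidney tubule lists had medians of -0.13 over 8 genes and -0.12 over 8 genes. The kidney tubule list had 2 intervals above 1 and 2 below, and the macrophage list had none above and 1 below. No marker gene of these lists was at 0 in both libraries. A pair of macrophage genes named MFAP4 had no count in treated, but had only 2 and 1 counts in wild type, under 1 CPM. The part of these cell types in the values of the pump genes was not tested.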

How the data were processed

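The series' table holds the authors' deposited estimated counts (expected counts) and FPKM of 26597 genes, per the file headers; deposited single-library files held the same counts for all of them. Per the submitters' processing notes, StringTie 1.3.1, HISAT2, Bowtie2 2.2.8, fastp 0.18.0, edgeR and DESeq2 were used with danRer11; for their roles, the annotation and strand use, nothing is stated (not given in the sources used here). A names table named 23499 of 25197 Ensembl IDs; it writes many genes in capitals and gives some copies 1 name, so those are told apart by ID. No sequences or coordinates were used.

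Counts were rounded and scaled by TMM (edgeR 4.0.16, R 4.3.3). Log2 ratios add 0.5 counts per gene and library. Intervals of ratios and shares are exact (Clopper-Pearson, 95%); those between copies are exact conditional odds ratios, and for other pairs with 500 counts or more in each copy normal approximations; differences of shares use Newcombe's interval. A count of 3 equals 0.157 (wild type) or 0.152 CPM (treated). Other steps ran in Python 3.11.15 with scipy 1.17.1, pandas 2.3.3, matplotlib 3.10.9 and numpy 2.4.6.

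All members are named. Of most other lists, some of the highest, lowest or most abundant genes are named. Some genes of known role are also named, chosen after their values were seen. No single gene of the photoreceptor and kidney tubule lists is named. More abundant copies are those with more wild-type counts. List names match a gene name in either case, alone or followed by a or b. The members and lists were chosen with earlier results of these data known. Alternatives were other scalings, floors, a prior of 2 counts, FPKM with 0.5 added, a fold of 1.5 and no interval; the background at 10 CPM, also under other scalings, and that of pairs were added after seeing the data.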

Additional observations from a re-analysis of the deposited data

How the results depend on the processing

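No paired analysis was possible because there is only 1 library a group, and no library could be left out for the same reason. No member reached 2-fold, or 1.5-fold, under any setting run. Total counts shifted the median of all genes by 0.06 on the log2 scale and upper-quartile factors by -0.01. The number of members with an interval below 1 fell from 2 to 1 with total counts, since the more abundant ATP6V0C gene then included 1. The number above 1 ranged from 12 with upper-quartile factors to 16 with total counts, and 22 of 26 members kept their side with total counts, 24 with upper-quartile factors and 26 with median-of-ratios factors. The median over all members ranged from 0.10 with upper-quartile factors to 0.18 with total counts, and was 0.17 with FPKM. No member whose interval excluded 1 changed direction, and shares of copies computed from FPKM kept the direction of all 9 differences. The counting intervals cover the depth of these libraries only, and the spread between animals or libraries is not known.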
